A study of Mus musculus with 2 samples.

Results

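The 10 genes described here encode the class I molecules of the mouse major histocompatibility complex (MHC) and the machinery that loads them with peptide. They were taken as a named list of 31053 genes counted in each of 2 single-cell RNA sequencing libraries of the retina. The heavy chains were H2-K1, H2-D1, H2-Q6, H2-Q7 and H2-T23, the light chain was B2m, and the loading genes were Tap1, Tap2, Tapbp and Psmb8. All 10 were counted in both libraries, and together they made up 0.780% of the counts of kept cells under the knockout label and 0.762% under the wildtype label. The libraries came from sorted CD45-stained cells of C57BL/6 mice, 1 library labelled as a knockout of Igfbpl1 (Igfbpl1-/-) and 1 labelled wildtype, to compare retinal microglia with and without that gene. The study design names 10 mice of each genotype, sex-matched and aged 8 to 10 months. The labels give neither the number of mice pooled in a library nor the knockout allele, and no cell could be tied to a mouse. Neither genotype has a replicate library. Every difference between them below is therefore a difference between 2 libraries, and no p-value is given.

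Class I molecules display peptides from inside the cell to CD8 T cells and to receptors of natural killer cells. A heavy chain pairs with the light chain beta-2 microglobulin in the endoplasmic reticulum, where the transporter TAP delivers peptides cut by the proteasome and tapasin holds the empty molecule at the transporter. Interferons are known to raise the genes of the pathway together, and microglia are the resident macrophages in which this display is studied in the nervous system.

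The library labelled knockout held 1785 barcodes and 7945713 unique molecular identifiers (UMIs), and the library labelled wildtype 2735 barcodes and 11020717 UMIs, with 1 barcode sequence in common. Filtering kept 1761 and 2695 cells with medians of 4286 and 3910 UMIs. Igfbpl1 went against the labels, with 29 counts in 27 barcodes under the knockout label and 2 counts in 2 barcodes under the wildtype label. Because the deleted part of the gene is not given, these 3′ tags may check nothing, and the libraries are called by their labels throughout. Levels are CPM, counts per 1000000 summed UMIs of a group of cells, with 95% intervals that cover counting error only. Each UMI is a 3′ tag and levels were not scaled by transcript length, so levels are compared between cells and not between genes.

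Cells were put in classes by how many distinct markers of a list they held, and no member of the class I list is a marker. At least 4 of 10 microglia markers defined 1498 microglia in the library labelled knockout and 2380 in the library labelled wildtype. Border macrophages, the macrophages of vessels and membranes around the nervous tissue, numbered 31 and 42 at 3 or more of 8 markers. Lymphocytes numbered 30 and 20 at 3 or more of 18 markers, endothelial-gene cells 3 and 5 at 3 or more of 12, and Müller glia, the radial support cells of the retina, 35 and 48 at 4 or more of 10. Retinal neurons, 19 and 25 cells at 4 or more of 12 markers, served as a type with little class I RNA. Microglia were thus 85.1% and 88.3% of the kept cells, and Ptprc, which encodes CD45, stood at 328 and 373 CPM in them, against 5.24 and 23.7 CPM in Müller glia. A further 144 and 170 cells passed no gate, and 1 and 5 cells passed more than 1 gate other than the microglial one and were left out.

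Microglial RNA reached the other classes to different degrees, and its part in their levels was not tested. P2ry12, a microglial receptor, stood at 202 CPM in border macrophages under the knockout label and 206 CPM under the wildtype label, with a median of 7 microglia markers per cell in both libraries. In lymphocytes P2ry12 stood at 309 and 403 CPM, and 11 of 30 and 6 of 20 cells held at least 4 microglia markers. In Müller glia it stood at 5.24 and 253 CPM, and 0 of 35 and 6 of 48 cells held at least 4 microglia markers. In microglia themselves it stood at 1582 and 1679 CPM. The Müller glia labelled knockout were thus nearly free of P2ry12 counts, while those labelled wildtype were not. Counts of the endothelial list summed to 1466 and 1368 CPM in Müller glia, from 5 and 4 of its 12 genes.

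Of the 10 genes, 9 lie in the MHC on chromosome 17 of GRCm38 and B2m lies on chromosome 2, at chr2:122147686-122153083 on the plus strand. Tapbp (chr17:33915899-33929292, plus strand) and H2-K1 (chr17:33996017-34000347, minus strand) lie close together, and Tap1 (chr17:34187553-34197225), Psmb8 (chr17:34197721-34201454) and Tap2 (chr17:34203527-34216321) follow each other on the plus strand. H2-D1 (chr17:35262730-35267499), H2-Q6 (chr17:35424850-35430055) and H2-Q7 (chr17:35439155-35443773) are on the plus strand and H2-T23 (chr17:36029773-36032855) is on the minus strand. Positions are those of GENCODE M21.

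Promoter windows of RefSeq on GRCm38.p6, 250 bases before to 50 bases after the start of transcription, were at hand for 9 of the 10 genes. The stretches below are shown because they let the 4 heavy chains with the same pair of elements be set beside each other. The letters GGGGATTCC, the core of an element of class I promoters bound by NF-kB, and GAANNGAAA, part of an interferon response element, were searched on both strands, and their matches are in capitals. The second element reads as its reverse complement on the printed strand. The stretches lie at chr17:34000409-34000478 on the minus strand for H2-K1, and on the plus strand at chr17:35262903-35262972 for H2-D1, chr17:35424657-35424726 for H2-Q6 and chr17:35439002-35439070 for H2-Q7.
H2-K1: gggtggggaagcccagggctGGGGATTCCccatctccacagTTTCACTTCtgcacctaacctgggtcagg
H2-D1: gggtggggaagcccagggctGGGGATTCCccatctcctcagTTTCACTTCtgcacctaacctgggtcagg
H2-Q6: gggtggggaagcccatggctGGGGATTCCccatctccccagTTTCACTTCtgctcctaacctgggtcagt
H2-Q7: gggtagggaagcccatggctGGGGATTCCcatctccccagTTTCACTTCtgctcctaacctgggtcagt
The 2 elements started 21 bases apart in H2-K1, H2-D1 and H2-Q6 and 20 bases apart in H2-Q7. The H2-D1 stretch matched that of H2-K1 at 69 of 70 bases, and the H2-Q6 stretch matched it at 66 of 70. Of 32851 promoter windows, 0.25% held GGGGATTCC and 7.52% held GAANNGAAA.

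The windows of B2m and H2-T23 held neither of those runs of letters but held GAAANNGAA, another part of the interferon response element, as did 8.56% of all windows. No match of 1 motif overlapped a match of another in any of the windows printed here. The stretches of B2m and H2-T23 are shown to set the light chain beside a heavy chain that also lacks the letters GGGGATTCC. Other forms of the NF-kB element were not searched, so these windows cannot be read as free of one. The match is in capitals. The stretch lies at chr2:122147528-122147576 on the plus strand for B2m. For H2-T23 it lies at chr17:36032796-36032844 on the minus strand, where the match reads as its reverse complement.
B2m: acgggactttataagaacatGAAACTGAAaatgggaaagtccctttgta
H2-T23: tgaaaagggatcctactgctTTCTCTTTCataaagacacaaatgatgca
The Psmb8 window held the letters TTCNNNGAA, a gamma-activated site that 8.3% of windows held. The Tap1 window, shown because Tap1 differed most between cells with and without Ifit3 counts under the wildtype label, held none of the 4 motifs and is printed without capitals. It lies at chr17:34187306-34187605 on the plus strand and shares 275 of its 300 bases with the window of Psmb9, an immunoproteasome gene read in the opposite direction. The Tapbp window, at chr17:33919228-33919527 on the plus strand, held none of the 4 motifs either. It lies inside the GENCODE span of Tapbp given above, as the printed stretches of H2-D1 and H2-T23 lie inside theirs. The RefSeq start used for these genes is thus not the outermost GENCODE start, and other starts of them were not searched. A match is a description of the letters and not a site in use.
Tap1: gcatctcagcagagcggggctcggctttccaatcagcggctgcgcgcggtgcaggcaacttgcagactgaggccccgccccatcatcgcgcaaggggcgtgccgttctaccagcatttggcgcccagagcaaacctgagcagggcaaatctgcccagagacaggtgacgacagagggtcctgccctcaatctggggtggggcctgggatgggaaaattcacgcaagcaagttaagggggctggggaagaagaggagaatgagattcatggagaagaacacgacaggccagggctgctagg

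The heavy chains resemble each other, which bears on how their 3′ tags were assigned. Of the 50-base words in the last 500 bases of their GENCODE M21 transcripts, 42.9% of those of H2-Q6 also occurred in other genes, 23.9% in H2-Q7. For H2-T23 the share was 38.1%, for H2-Q7 11.8%, for H2-K1 9.6% and for H2-D1 8.92%. The level of H2-Q6, and to a lesser degree those of the other heavy chains, is uncertain for this reason. For B2m, Tap2 and Psmb8 the share was 0, for Tap1 2.75% and for Tapbp 4.83%.

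In microglia all 10 genes were counted, and 9 of them differed by less than 1.5-fold between the libraries. H2-D1, a classical heavy chain, stood at 2487 CPM under the knockout label and 2780 CPM under the wildtype label, and H2-K1, the other classical heavy chain, at 1244 and 1316 CPM. B2m stood at 2765 CPM (2726 to 2805) and 2417 CPM (2386 to 2448), and was counted in 98.4% and 98.2% of cells. The light chain was thus seen in nearly every microglial cell of both libraries. H2-T23, which encodes Qa-1, the ligand of the natural killer receptor CD94/NKG2A, stood at 489.6 and 432 CPM. Of the non-classical heavy chains of the Qa-2 group, H2-Q7 stood at 79.7 and 97.0 CPM and H2-Q6 at 42.9 and 65.0 CPM. The transporter subunit genes Tap1 and Tap2 stood at 62.6 and 66.0 CPM and at 129 and 110.2 CPM. Of these genes H2-Q6 differed most between the libraries. Tapbp, which encodes tapasin, stood at 180 and 162 CPM and Psmb8, an inducible catalytic subunit of the immunoproteasome, at 374 and 393 CPM. After each cell was thinned to 1000 UMIs, B2m was seen in 89.4% and 86.9% of microglia and H2-D1 in 85.6% and 87.3%, while Tap1 was seen in 6.99% and 5.74%. In thinned retinal neurons B2m was seen in 0 of 14 cells, with an approximate limit of 21.4% (3 over the number of cells), and in 4 of 24 cells. The full-depth medians were 1718 and 1576 UMIs.

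**Figure D1:**
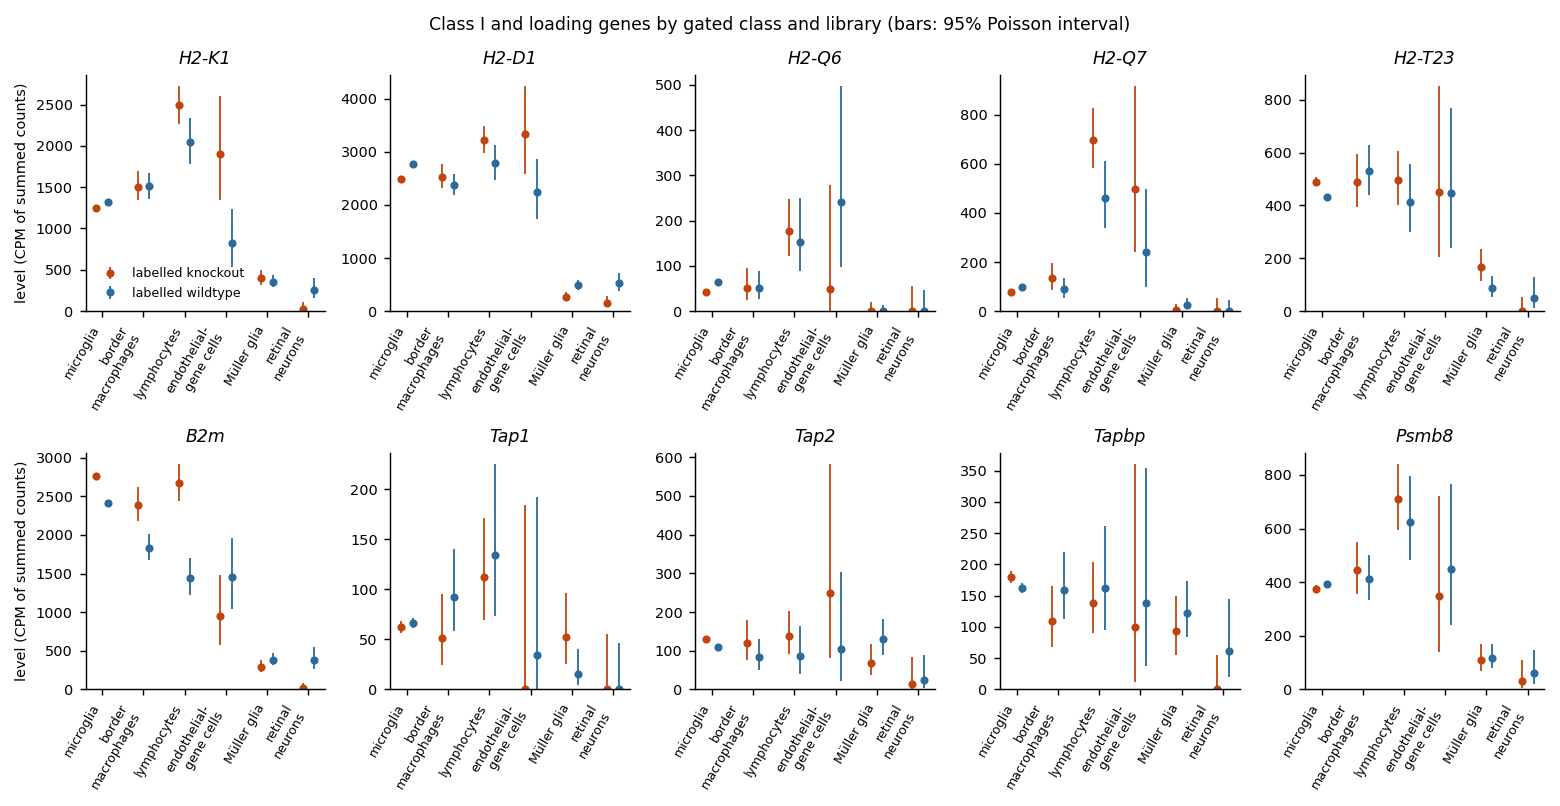
Level of each of the 10 genes (CPM of summed counts, linear axis from 0, own scale per panel) in 6 classes of cells, with the library labelled knockout left of the library labelled wildtype. Points are single libraries and bars are 95% Poisson intervals. Müller glia lie below microglia for H2-K1, H2-D1 and B2m, and lymphocytes stand above microglia for H2-Q7 at 698.6 and 460.4 CPM.

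Lymphocytes held more of the heavy chains H2-K1, H2-Q6 and H2-Q7, of Tap1 and of Psmb8 than microglia in both libraries. These 5 of 10 genes were at least 1.5-fold higher in lymphocytes under the knockout label, where 23.1% of all genes compared were, and the same 5 under the wildtype label, where 26.4% of all genes were. A gene was compared where it reached 50 CPM in at least 1 of the 2 groups of cells. All 10 did so, but H2-Q6 did so under the knockout label only through the lymphocytes. The median log2 ratio of the 10 genes was 0.61 and 0.32, against -0.03 and -0.08 over all genes. No member was at least 1.5-fold lower under the knockout label (30.2% of all genes), and B2m was under the wildtype label (32.1% of all genes).

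H2-Q7 had the largest ratio of the 10 in lymphocytes of both libraries. It stood at 698.6 CPM in lymphocytes against 79.7 CPM in microglia under the knockout label, a ratio of 8.77 (7.19 to 10.6), and at 460.4 against 97.0 CPM under the wildtype label, a ratio of 4.74 (3.47 to 6.34). The make-up of the class differed between the libraries, with 20 T or natural killer cells and 10 B cells under the knockout label and 6 and 14 under the wildtype label. In T and natural killer cells H2-Q7 stood at 919 CPM (764 to 1096) and 594 CPM (409 to 834), and in B cells at 149 CPM (64.3 to 294) and 308 CPM (172 to 508). T and natural killer cells were above B cells in both libraries, with overlapping intervals under the wildtype label. In the 19 and 14 lymphocytes with at most 3 microglia markers, H2-Q7 stood at 1099 and 431 CPM, which is above the level of the whole class under the knockout label and close to it under the wildtype label. Thinned to 1000 UMIs, 55.6% and 20% of lymphocytes held an H2-Q7 count (83.3% and 65% at full depth), against 6.99% and 7.83% of microglia (24.4% and 25.7%).

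The other called genes of lymphocytes had smaller ratios. H2-K1 was 2.0 times (1.82 to 2.2) and 1.55 times (1.35 to 1.78) the microglial level, and Psmb8 1.9 and 1.59 times. Tap1 was 1.79 and 2.03 times the microglial level and H2-Q6 4.1 and 2.36 times. Under the knockout label the subsets differed, with H2-K1 at 3056 CPM in T and natural killer cells and 1081 CPM in B cells, H2-Q6 at 232 and 37.3 CPM and Psmb8 at 807 and 466 CPM. The B cells labelled knockout thus showed no excess over microglia for H2-K1 and H2-Q6. Their intervals, 821 to 1397 CPM for H2-K1 and 4.51 to 135 CPM for H2-Q6 (2 counts), held the microglial levels of 1244 and 42.9 CPM. Under the wildtype label H2-K1 stood at 2034 and 2053 CPM, H2-Q6 at 162 and 144 CPM and Psmb8 at 630.02 and 616 CPM, so the subsets were close there. With every gate loosened by 1 marker, H2-K1 fell short of 1.5-fold under the wildtype label, at a log2 ratio of 0.57. H2-K1 had the larger ratio of the classical chains, as H2-D1 stood at 1.3 times (1.19 to 1.41) and 1.0 times (0.888 to 1.12) the microglial level. As a share of the counts of both classical chains, H2-K1 made up 43.6% and 42.3% in lymphocytes and 33.3% and 32.1% in microglia. B2m did not follow H2-K1, H2-Q6 and H2-Q7. It stood at 0.966 times the microglial level (0.882 to 1.06) under the knockout label. Under the wildtype label it stood at 0.599 times (0.507 to 0.703). Tap2, Tapbp and H2-T23 stood between 0.772 and 1.07 times the microglial level.

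Border macrophages stood close to microglia for nearly all of the genes. At least 1.5-fold higher was H2-Q7 alone under the knockout label, at 135 against 79.7 CPM (12.8% of all genes), and no member under the wildtype label (10% of all genes), where H2-Q7 stood at 88.3 against 97.0 CPM. At least 1.5-fold lower was Tapbp under the knockout label, at 109 against 180 CPM (27.2% of all genes), and no member under the wildtype label (27.1% of all genes), where Tapbp stood at 160 against 162 CPM. Neither call was met in both libraries. Tapbp fell short of 1.5-fold with every gate loosened by 1 marker, at a log2 ratio of -0.46. With every gate tightened by 1 marker, 4 genes were at least 1.5-fold higher under the knockout label, and 3 higher and 2 lower under the wildtype label. The share of all genes and the number of cells left under the tightened gates were not counted. These calls are therefore not read as a trait of the class I list. All 10 genes were compared, H2-Q6 under the knockout label only through the border macrophages, and their median log2 ratio was 0.01 and -0.08, against -0.20 and -0.21 over all genes. H2-K1 stood at 1.21 and 1.15 times the microglial level and B2m at 0.865 and 0.76 times, with intervals that excluded 1 in both libraries. Since these cells held a median of 7 microglia markers, and only 1 and 2 of them had at most 3, the part of microglial RNA in this likeness was not tested.

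Müller glia had far less class I RNA than microglia. Of the 9 genes compared under the knockout label 8 were at least 1.5-fold lower, where 28.3% of all genes were, and of the 10 compared under the wildtype label 8 were lower, where 27.4% of all genes were. No member was at least 1.5-fold higher, against 46.5% and 42.8% of all genes. H2-Q7 in both libraries, and H2-Q6 and Tap1 under the wildtype label, reached 50 CPM only in microglia, so that for them no higher call was possible. The median log2 ratio of the members compared was -1.64 and -2.05, also with H2-Q6 at its bound under the wildtype label, against 0.46 and 0.35 over all genes. B2m stood at 293 CPM (221 to 381) against 2765 CPM in microglia under the knockout label and at 384 CPM (311 to 468) against 2417 CPM under the wildtype label. H2-D1 stood at 267 and 486 CPM, 0.107 and 0.175 times the microglial level, and H2-K1 at 398 and 356 CPM, 0.32 and 0.27 times. Both classical chains and the light chain were thus several-fold lower than in microglia in both libraries. H2-T23 stood at 0.342 and 0.201 times the microglial level and Psmb8 at 0.294 and 0.302 times. H2-Q6 had 0 counts in Müller glia of both libraries, which made it at least 2.73-fold and 5.48-fold lower than in microglia at a floor of 3 counts per class and library; under the knockout label it reached 50 CPM in neither class. H2-Q7 had 1 and 6 counts there.

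Of the loading genes, Tapbp, Tap1 and Tap2 were closer to the microglial level than the heavy and light chains in at least 1 library. In Müller glia Tapbp stood at 94.2 and 123 CPM, 0.525 and 0.758 times the microglial level, and Tap2 at 68.1 and 130.5 CPM, 0.527 (0.279 to 0.905) and 1.18 (0.811 to 1.67) times. Tap1 stood at 52.4 and 15.8 CPM from 10 and 4 counts, 0.836 (0.398 to 1.55) and 0.24 (0.0651 to 0.617) times. The libraries thus differed in which TAP gene stood near microglia, with Tap1 under the knockout label and Tap2 under the wildtype label, on few counts. Under the knockout label H2-K1 had 3455 counts per 1000 counts of the macrophage genes Csf1r, C1qa, C1qb and Ctss in Müller glia, against 39.6 per 1000 in microglia, and under the wildtype label 140.4 per 1000 against 41.2 per 1000. In the 42 Müller glia labelled wildtype with at most 3 microglia markers, H2-K1 stood at 271 CPM, H2-D1 at 281 CPM, B2m at 222 CPM, Tap2 at 114 CPM and Tapbp at 118 CPM. These values of H2-K1, H2-D1 and B2m lie below those of all 48 cells, and without the cells in the top 5% of UMIs of the library the log2 ratios under the wildtype label were -2.59 for H2-K1, -4.00 for H2-D1 and -3.52 for B2m. With every gate loosened by 1 marker, 5 genes in place of 8 were at least 1.5-fold lower under the knockout label. H2-T23, Tap2 and Tapbp then stood at log2 ratios of -0.15, -0.22 and -0.38, and Tap1 was past 1.5-fold higher at 0.80. The share of all genes was not counted under the loosened gates.

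The balance within pairs of genes also differed between classes. H2-K1 made up 59.8% (50.8 to 68.4) of the counts of H2-K1 and H2-D1 in Müller glia labelled knockout and 42.3% (35.5 to 49.2) in those labelled wildtype, against 33.3% and 32.1% in microglia. The Müller glia labelled wildtype include cells with at least 4 microglia markers. In the 42 with at most 3, H2-K1 had 55 counts and H2-D1 had 57, which is closer to an even split. Psmb8 takes the place of the standard subunit Psmb5 when the immunoproteasome forms. Psmb8 made up 31.3% (20.6 to 43.8) and 44.8% (32.6 to 57.4) of the counts of Psmb8 and Psmb5 in Müller glia, 81.1% and 78.3% in lymphocytes, and 75.4% and 71.0% in border macrophages, against 69.9% and 72.7% in microglia. Retinal neurons held 11.8% and 19.2%, from 2 and 5 Psmb8 counts. The Psmb8 share of Müller glia thus lay below that of microglia and other immune cells in both libraries, with intervals that did not overlap.

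**Figure D2:**
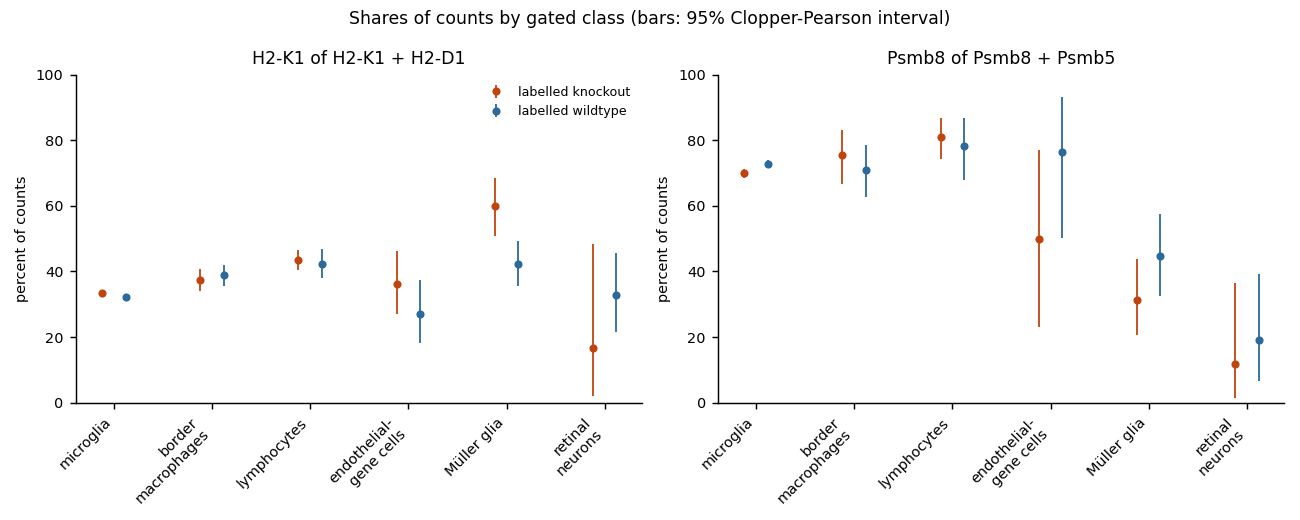
Share of H2-K1 in the counts of H2-K1 and H2-D1, and share of Psmb8 in the counts of Psmb8 and Psmb5 (percent, axis from 0 to 100), in 6 classes, with the library labelled knockout left of the library labelled wildtype. Bars are 95% Clopper-Pearson intervals. Müller glia hold the highest H2-K1 share under the knockout label, at 59.8%. Under the wildtype label all 48 of them, of which 42 held at most 3 microglia markers, stand level with lymphocytes at 42.3%. The Psmb8 share of Müller glia lies below that of microglia.

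Retinal neurons set the lower end of the scale. The 10 genes summed to 239.5 CPM in neurons labelled knockout and 1382 CPM in those labelled wildtype, of which 3 of 25 held at least 4 microglia markers. Under the knockout label H2-D1 stood at 149.7 CPM (71.8 to 275, 10 counts), B2m at 15 CPM (1 count) and H2-K1 at 29.9 CPM (2 counts). In the 22 other cells labelled wildtype H2-D1 stood at 163 CPM (78.4 to 301, also 10 counts), B2m at 49.0 CPM (3 counts) and H2-K1 at 16.3 CPM (1 count). H2-D1 was thus the member with the most counts in neurons of both libraries.

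Endothelial-gene cells numbered 3 and 5, with 20034 and 28965 UMIs, so that 1 count was worth 49.9 and 34.5 CPM and only large levels could be read. P2ry12 was not counted in the 3 cells labelled knockout, and 1 of the 5 labelled wildtype held at least 4 microglia markers. H2-D1 stood at 3344 CPM (2592 to 4247) and 2244 CPM (1732 to 2860), and H2-Q7 at 499 CPM (10 counts) and 242 CPM (7 counts). H2-Q7 was 6.26 times (2.99 to 11.6) and 2.49 times (0.999 to 5.15) the microglial level. H2-K1 stood at 1897 and 829 CPM. Under the knockout label 1 cell held 9 of the 10 H2-Q7 counts, 48 of the 67 H2-D1 counts and 32 of the 38 H2-K1 counts, so the levels there are largely those of single cells. B2m stood at 948 and 1450.03 CPM, 0.343 and 0.6 times the microglial level. H2-Q6 had 1 and 7 counts, Tap1 0 and 1, Tap2 5 and 3, Tapbp 2 and 4, Psmb8 7 and 13 and H2-T23 9 and 13. The 6 and 7 cells with exactly 2 endothelial markers, added after the data had been seen, held microglial RNA (P2ry12 735 and 843 CPM) and H2-Q7 levels of 19.9 and 0 CPM. Of them, 5 of 6 and 6 of 7 held at least 4 microglia markers and were also counted among the microglia. Their levels are thus mostly those of gated microglia.

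Between the libraries, the 10 genes of microglia moved little and in both directions. No member was at least 1.5-fold higher under the knockout label than under the wildtype label (0.806% of 3224 genes), and H2-Q6 alone was at least 1.5-fold lower (0.496% of genes). H2-Q6 stood at 42.9 CPM under the knockout label against 65.0 CPM under the wildtype label and reached 50 CPM only under the wildtype label, so it was compared only through the library where it was higher, as in the cells without Ifit3 counts. Its ratio was 0.661 (0.573 to 0.76), just past the 1.5-fold line, and 42.9% of its 3′ words occur in other genes. It fell short of 1.5-fold with equal weight per cell, with edgeR TMM scaling and in microglia with at most 1 marker of other gates, at log2 ratios of -0.49, -0.58 and -0.57. The median log2 ratio was -0.07 over the 10 genes and -0.03 over all genes. H2-Q7 stood at 0.821 times (0.738 to 0.913), H2-D1 at 0.894 times and H2-K1 at 0.945 times. B2m stood at 1.14 times (1.12 to 1.17), H2-T23 at 1.13 times, Tap2 at 1.17 times and Tapbp at 1.11 times. The heavy chains H2-K1, H2-D1, H2-Q6 and H2-Q7 were thus the lower ones and B2m, H2-T23, Tap2 and Tapbp the higher ones, with counting intervals that excluded 1 for these 8. The share of all genes with such an interval was not counted, so the 8 are not read as a trait of the class I list. Of 19 other genes of the class I pathway compared, 4 had an interval above 1 and 6 had one below 1. Tap1 stood at 0.949 times (0.838 to 1.07) and Psmb8 at 0.952 times, with an interval that ended at 1. B2m made up 38.9% and 34.0% of the counts of B2m and the 5 heavy chains together.

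The 8 members whose intervals excluded 1 kept their direction in the 1255 and 2077 microglia with no Ifit3 count. These cells are 83.8% and 87.3% of the same microglia, so this is largely a second count of the same cells and not a separate observation. Ifit3 is an interferon-induced gene, and leaving out the cells that had it gave ratios of 0.662 for H2-Q6, 0.810 for H2-Q7, 0.888 for H2-D1, 0.938 for H2-K1, 1.14 for B2m, 1.15 for H2-T23, 1.16 for Tap2 and 1.17 for Tapbp, each with an interval that excluded 1. Tap1 at 1.06 and Psmb8 at 0.963 had intervals that held 1. The share of all genes with an interval that excluded 1 was not counted in these cells either. H2-Q6 was again the only member past 1.5-fold (0.401% of genes lower, 0.801% higher).

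**Figure D3:**
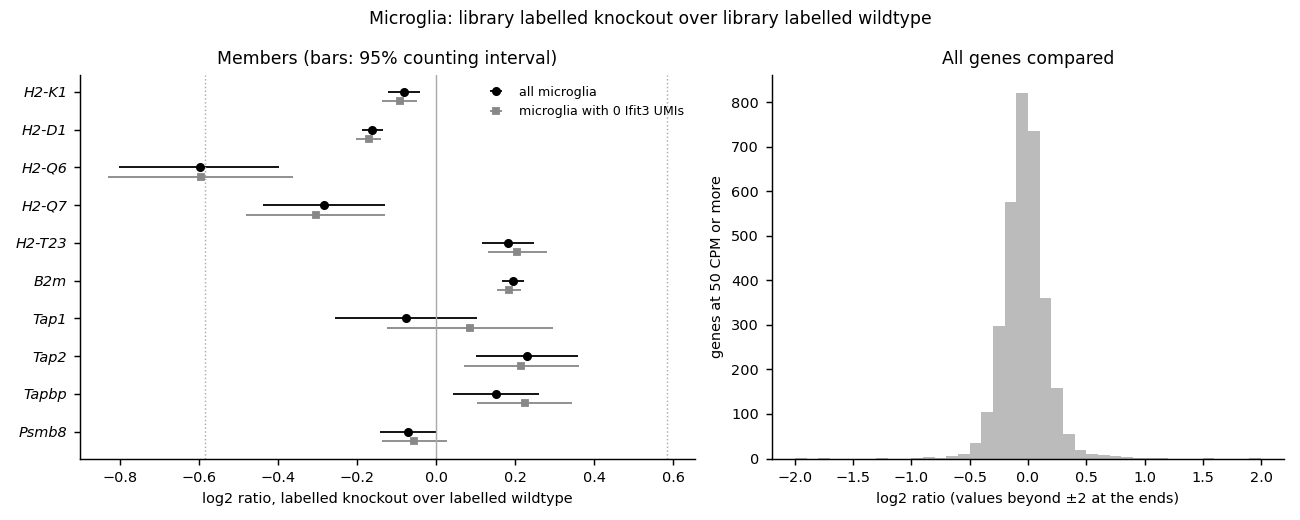
Left, log2 ratio (knockout label over wildtype label) in microglia for the 10 genes, with 95% counting intervals, in all microglia and in those with no Ifit3 count; dotted lines mark 1.5-fold. Right, the log2 ratios of all 3224 genes compared. H2-Q6 lies at -0.60 and the other 9 genes between the dotted lines.

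Most class I genes were higher in microglia with 4 or more Ifit3 counts than in those with none, by the largest ratios for H2-Q7 and Tap1 under the knockout label and for Tap1 and H2-T23 under the wildtype label. Microglia were split by Ifit3 UMIs into 0, 1, 2 to 3, and 4 or more, which held 1255, 137, 65 and 41 cells under the knockout label and 2077, 173, 55 and 75 under the wildtype label. The bins differed in depth, with medians of 4256, 4988, 4664 and 4943 UMIs and of 3929, 4217, 5118 and 5556 UMIs. In the bin of 4 or more, Ifit3 itself reached 1212 CPM (median 5 UMIs per cell) under the knockout label and 2182 CPM (median 9) under the wildtype label, so the top bins were not matched. All 10 genes reached 50 CPM in at least 1 of the 2 outer bins of each library, H2-Q6 under the knockout label only through the top bin.

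Of the 10 genes, 6 were at least 1.5-fold higher in the top bin than at 0 in each library, where 13.5% of all genes under the knockout label and 10.6% under the wildtype label were. No member was at least 1.5-fold lower (8.49% and 8.15% of all genes). The median log2 ratio of the members was 0.77 and 0.73, against 0.04 and -0.04 over all genes. H2-Q7, H2-T23, Tap1 and Tap2 were past 1.5-fold in both libraries. H2-K1 and H2-Q6 were past it under the knockout label, and Tapbp and Psmb8 under the wildtype label. H2-D1 and B2m had ratios of 1.3 and 1.44 under the knockout label and of 1.03 and 1.17, the smallest of the 10, under the wildtype label.

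Tap1 stood at 57.8, 71.1, 79.1 and 132 CPM over the 4 bins under the knockout label, and at 54.4, 65.5, 125 and 256 CPM under the wildtype label. Its top bin was 2.28 times (1.49 to 3.36) and 4.71 times (3.79 to 5.82) the level at 0, which ranked it 137 of 3570 and 86 of 3483 genes by ratio. Tap1 was thus close to equal in cells without Ifit3 and 0.513 times (0.326 to 0.784) as high under the knockout label in the top bins, which differed in Ifit3 level; whether this difference comes from the Ifit3 level was not tested. Tap2 stood at 125, 139.5, 129 and 211 CPM and at 107, 92.7, 145.5 and 176 CPM, a ratio of 1.7 (1.23 to 2.29) and 1.64 (1.28 to 2.08). Tap1 made up 31.7% of the counts of both transporter genes at 0 and 38.4% (27.2 to 50.5) in the top bin under the knockout label, and 33.6% and 59.2% (51.8 to 66.4) under the wildtype label.

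H2-T23, the gene of Qa-1, was higher in each successive bin of both libraries. It stood at 457, 553, 651 and 841 CPM and at 396, 540, 599 and 811 CPM, with ratios of 1.84 (1.57 to 2.14) and 2.05 (1.83 to 2.29). H2-K1 stood at 1189, 1348, 1398 and 2049 CPM and at 1267, 1545, 1618 and 1632 CPM. It stepped up in the top bin under the knockout label and changed little beyond 1 Ifit3 count under the wildtype label. H2-D1 stood at 2422, 2589, 2890 and 3143 CPM and at 2726, 3223, 3055 and 2819 CPM, so that under the wildtype label its top bin lay within the spread of the other bins. B2m stood at 2660.1, 2958, 3365 and 3834 CPM and at 2339.9, 2884, 2875 and 2737 CPM. The top bins of B2m differed between the libraries, with a ratio of 1.4 (1.28 to 1.53) under the knockout over the wildtype label, against 1.14 at 0. The classical chains and B2m thus had larger top-bin ratios under the knockout label. H2-Q7 stood at 73.4, 94.8, 85.0 and 179 CPM and at 90.7, 126, 118 and 153 CPM, with ratios of 2.43 (1.7 to 3.39) and 1.69 (1.29 to 2.17). H2-Q6 stood at 39.7, 54.0, 41.0 and 89.3 CPM and at 59.98, 100.1, 79.7 and 87.0 CPM, with ratios of 2.25 (1.33 to 3.59) and 1.45 (1.01 to 2.03) on 19 and 37 counts in the top bins.

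Psmb8 stood at 360.1, 408, 437 and 517 CPM under the knockout label, a ratio of 1.44 (1.17 to 1.74), and at 374, 449, 412 and 647 CPM under the wildtype label, a ratio of 1.73 (1.52 to 1.96). Tapbp stood at 181, 164, 161 and 221 CPM, a ratio of 1.22 (0.89 to 1.63), and at 155, 158, 211 and 263 CPM, a ratio of 1.7 (1.39 to 2.06). The loading genes other than Tap2 thus had larger ratios under the wildtype label, and the heavy chains other than H2-T23 and the light chain had larger ratios under the knockout label. The difference between the 2 libraries' ratios was not tested.

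Markers of border macrophages moved with the top bin under the knockout label. The 8 markers summed to 76.5 CPM at 0 and 319.5 CPM in the top bin there (3 of 8 counted), and to 62.0 and 2.35 CPM under the wildtype label (1 of 8 counted). In the 32 and 64 top-bin cells with at most 1 marker of all other gates, an alternative added after the data had been seen, the log2 ratios were 0.91 and 0.27 for H2-K1, 0.55 and 0.16 for B2m and 0.92 and 1.9 for Tap1. H2-Q7 then stood at 1.59 and 0.28, short of 1.5-fold under the wildtype label, and H2-Q6 at 1.22 and -0.14. With bins on Isg15, another interferon-induced gene, H2-K1 fell short of 1.5-fold and B2m passed it under the knockout label, at log2 ratios of 0.46 and 0.63. With bins set after thinning to 2000 UMIs, which left 12 and 36 cells in the top bin, Psmb8 stood at -0.18 and 1.18, H2-Q6 at 1.97 and -0.02, and H2-Q7 at 2.09 and 0.68. Without the cell with most counts of the 10 genes, which held 8.76% and 3.88% of them in the top bin, Tap1 stood at 1.18 and 2.22 and B2m at 0.46 and 0.22.

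**Figure D4:**
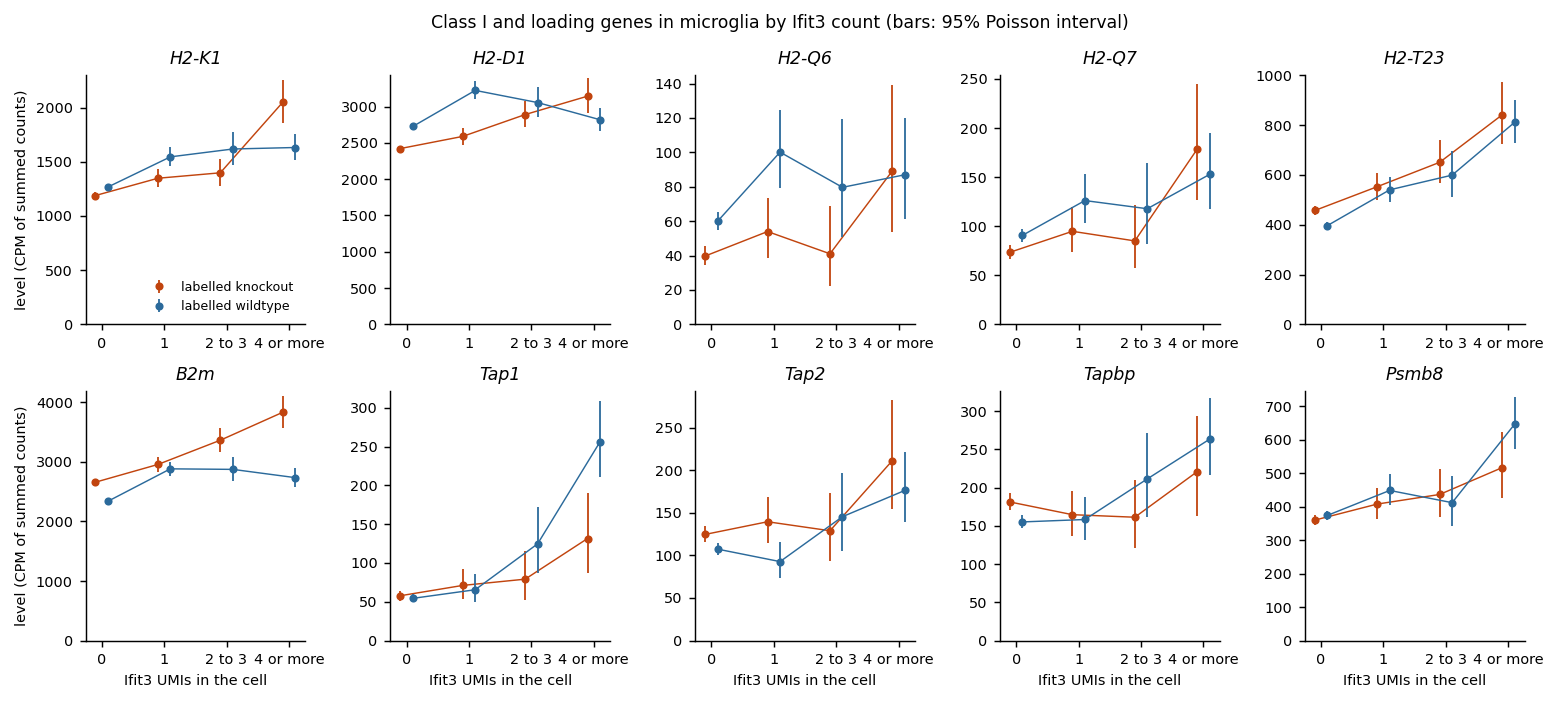
Level of each of the 10 genes (CPM of summed counts, linear axis from 0) in microglia with 0, 1, 2 to 3, and 4 or more Ifit3 UMIs, with the library labelled knockout left of the library labelled wildtype in each bin. Bars are 95% Poisson intervals. Tap1 ends at 132 and 256 CPM, and B2m at 3834 and 2737 CPM.

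**Figure D5:**
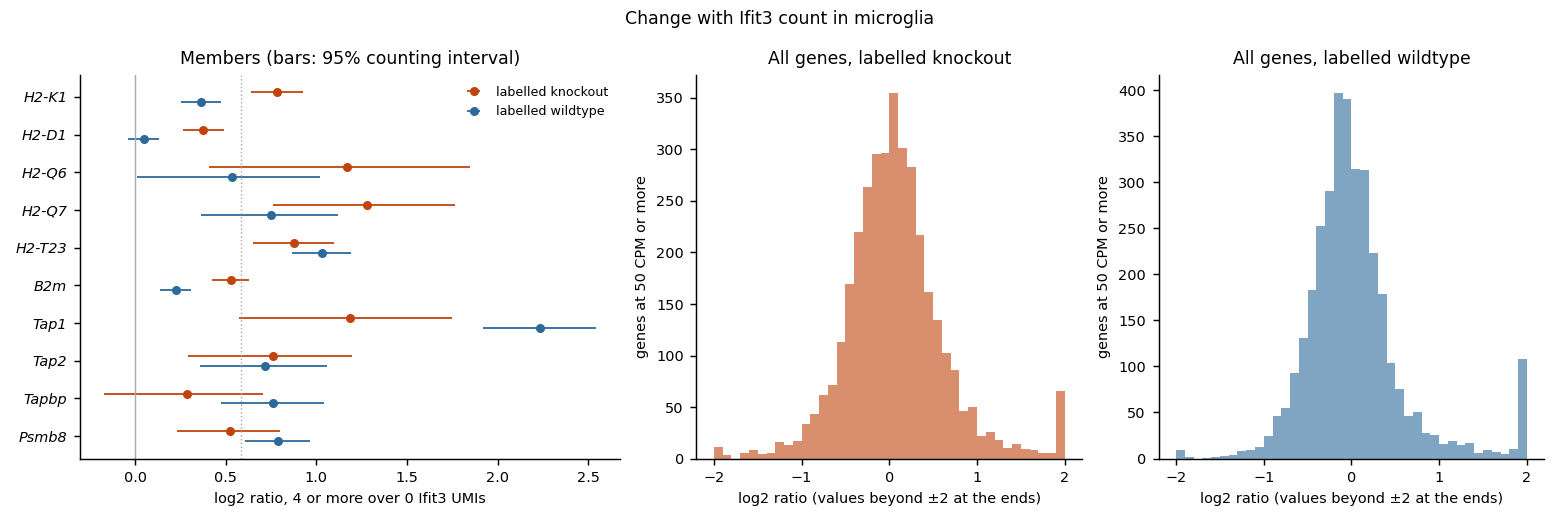
Left, log2 ratio of microglia with 4 or more over those with 0 Ifit3 UMIs for the 10 genes in each library, with 95% counting intervals; the dotted line marks 1.5-fold. Middle and right, the same ratio for all genes compared, 3570 under the knockout label and 3483 under the wildtype label. All 20 points lie above 0, from 0.05 for H2-D1 to 2.24 for Tap1, both under the wildtype label.

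Of 36 other genes of the class I pathway that were listed, 33 were counted, and 4 genes of the immunoproteasome and its activator were among those past 1.5-fold with Ifit3 in both libraries. Of the 23 compared under the knockout label 10 were at least 1.5-fold higher in the top bin, where 13.5% of all genes were, and 1 was lower (8.49% of all genes). Of the 24 compared under the wildtype label 13 were higher (10.6% of all genes) and none was lower (8.15% of all genes). Of the higher ones, 4 under the knockout label and 5 under the wildtype label reached 50 CPM only in the top bin, so that for them no lower call was possible. The interferon regulator Irf9 was the lower gene under the knockout label (0.617 times, 0.294 to 1.15) and was among the higher ones under the wildtype label (1.97 times, 1.43 to 2.66). The subunits Psmb9 (1.96 and 1.86 times) and Psmb10 (1.8 and 2.46 times) and the proteasome activator genes Psme1 (1.8 and 2.04 times) and Psme2 (1.83 and 2.09 times) were past 1.5-fold in both libraries. So were the heavy chain genes H2-T22 (1.86 and 3.49 times) and H2-T24 (3.19 and 3.95 times), and Nlrc5, the transactivator of class I genes (8.34 and 13.6 times). H2-T24 and Nlrc5 in both libraries, and H2-T22 under the knockout label, are among those that reached 50 CPM only in the top bin; Nlrc5 stood at 6.2 and 51.7 CPM at 0 and in the top bin under the knockout label and at 4.17 and 56.4 CPM under the wildtype label. The standard subunits Psmb5, Psmb6 and Psmb7, which the inducible subunits replace, stood between 0.928 and 1.31 times. Between the libraries, in all microglia, 19 of the 33 were compared and none passed 1.5-fold in either direction; the most abundant, Hspa5 and Pdia3, stood at 675 and 662 CPM and at 589 and 700 CPM.

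The same list in lymphocytes had H2-Q4 (2.29 and 1.82 times the microglial level) and H2-T22 (3.0 and 2.46 times) past 1.5-fold in both libraries, and Psmb9 under the knockout label at 1.87 times, against 1.38 times under the wildtype label. H2-T22 reached 50 CPM under the knockout label only in lymphocytes. In all, 3 of 19 and 5 of 20 compared were at least 1.5-fold higher, against 23.1% and 26.4% of all genes, and 3 and 3 lower, against 30.2% and 32.1%, so neither count stood above the share of all genes. In Müller glia 3 and 1 of 20 were higher, against 46.5% and 42.8% of all genes, and 9 and 9 lower, against 28.3% and 27.4%. Psmb9, Psmb10, Psme1 and Psme2 were among the lower ones in both libraries, Psmb9 at 0.318 and 0.298 times, although it reached 50 CPM only in microglia. Cd1d1, a class I-like gene that presents lipids, stood at 57.6 and 83.0 CPM against 7.5 and 9.37 CPM in microglia, and was compared only through the Müller glia, so that no lower call was possible for it. In border macrophages Irf1 was higher in both libraries, at 1.85 and 1.64 times, with 1 of 18 and 2 of 20 higher, against 12.8% and 10% of all genes, and 1 and 1 lower, against 27.2% and 27.1%.

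Among single microglia, and among the 10 genes, the variance exceeded the mean by the largest factor for H2-D1. Ifit3, which is not one of the 10, had a factor of 2.32 and 5.28. After thinning to 2000 UMIs, which left 1236 and 1990 cells, the variance of H2-D1 counts was 2.31 and 2.62 times the mean, that of B2m 1.82 and 1.92 times, that of H2-K1 1.72 and 1.71 times and that of H2-T23 1.39 and 1.21 times. A ratio of 1 is what counting alone gives. At an equal relative spread between cells, the ratio is larger for a gene with more counts. It therefore does not rank the genes by their spread. H2-D1 averaged 4.82 and 5.32 counts per thinned cell. H2-Q7 had ratios of 1.24 and 1.18 at 0.148 and 0.18 counts, and H2-Q6 of 1.13 and 1.06 at 0.0947 and 0.12 counts. The loading genes Tap1, Tap2, Tapbp and Psmb8 lay between 1.01 and 1.07 times, where Psmb8 averaged 0.769 and 0.775 counts per thinned cell and Tap1 0.142 and 0.128. At full depth H2-D1 had a median of 2283 CPM per cell and a highest value of 11615 CPM under the knockout label, and 2392 and 15027 CPM under the wildtype label.

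Across the 6 classes of both libraries, 12 points that share 2 libraries and rest on 3 to 2380 cells each, the summed level of H2-K1, H2-D1 and B2m was most like that of Arpc1b, a subunit of the complex that nucleates actin filaments (Pearson r 0.993 on log2 of CPM plus 10, among 7985 genes). Next came Psmb9 (0.982), Ostf1 (0.964), Psmb8 (0.961) and Ly6e (0.96). These values are a description of the class levels and have no p-value. Arpc1b stood at 547 and 577 CPM in microglia and at 41.9 and 59.3 CPM in Müller glia.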

How the data were processed

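Cells of PBS-perfused retinas were sorted after CD45 staining and made into 10x Chromium 3′ libraries, per the labels' protocols. The authors deposited raw UMI counts per gene and barcode. Cell Ranger 3.1 and the build mm10 are named, per the submitters' processing notes, and how barcodes were filtered is not given in the sources used here.

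Barcodes under 500 UMIs or 250 genes, or with over 15% mitochondrial counts, were removed. Classes came from counts of distinct markers, with no clustering. No doublet caller was run, and cells passing more than 1 gate other than the microglial one were left out. Counts were summed per class and library and scaled to CPM. Intervals are 95% exact Poisson intervals for levels, Clopper-Pearson for shares, and the exact split of counts for ratios. A called gene reached 50 CPM in 1 of the 2 groups and a ratio of 1.5, and the floor was 3 counts. Per-cell shares were taken after thinning to 1000 UMIs. The ratio steps were run on simulated counts with counting error only. This checks the code and cannot show how the intervals hold with spread between cells or libraries. Python 3.11.15, numpy 2.4.6, scipy 1.17.1, pandas 2.3.3 and matplotlib 3.10.9 were used, and edgeR 4.0.16 only for TMM factors. The members, markers, gates and gene lists were chosen with earlier results of these data known. Named genes are the members, Igfbpl1, Ifit3, listed pathway genes past 1.5-fold or most abundant, and the 5 genes most like the members over classes. Alternatives changed the cell filter, the gates, the weight per cell, the deepest cells, the scaling and the Ifit3 bins.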

Additional observations from a re-analysis of the deposited data

Results flagged for a closer look

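H2-K1 in endothelial-gene cells stood above microglia under the knockout label and below them under the wildtype label, at log2 ratios of 0.61 and -0.67. The ratios differed by 1.276 on the log2 scale, a difference that was not tested. They rest on 3 and 5 cells with 38 and 24 H2-K1 counts, and 32 of the 38 came from 1 cell. Without the cells in the top 5% of UMIs of their library, the log2 ratio under the knockout label was -0.75.

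The cells that passed no gate, which no comparison used, held the 10 genes at a summed level of 9585.82 CPM under the knockout label and 8065 CPM under the wildtype label. In microglia the sums were 7854 and 7837 CPM. The 144 and 170 cells without a gate had medians of 1929 and 1318.5 UMIs and of 2 microglia markers, with Ptprc at 1041 and 622 CPM. The sum in these cells was thus higher under the knockout label than under the wildtype label, with no replicate library.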

How the results depend on the processing

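Of 1361 values recomputed under the alternatives, 1179 stayed, 179 moved beyond their counting interval or count limit, and 3 reversed, which counts only ratios past 1.5-fold that changed sign. A further 46 ratios short of 1.5-fold changed sign, 6 of them from a value whose interval excluded 1. These 6 were H2-D1 in endothelial-gene cells labelled knockout without the top 5% of UMIs, B2m under the knockout label and H2-K1 under the wildtype label in the 1 and 2 border macrophages with at most 3 microglia markers, and, over the Ifit3 bins, Psmb8 under the knockout label when thinned to 2000 UMIs and H2-Q6 under the wildtype label when thinned and with at most 1 marker of other gates. The cause was not tested for any of them. The reversed values were Tap2 over microglia in the 3 endothelial-gene cells labelled knockout, at a log2 ratio of -0.17 with gates of 1 marker fewer and -0.12 without the top 5% of UMIs, and H2-K1 there at -0.75 without the top 5%. The summed level of the 10 genes in microglia was 7930 and 7780 CPM with equal weight per cell and 7718 and 7664 CPM without the top 5% of UMIs, against 7854 and 7837 CPM. No gene was at least 1.5-fold lower between the libraries (0, against 1) with equal weight per cell, with at most 1 marker of other gates, or with TMM scaling. With gates of 1 marker more, border macrophages had 4 higher genes under the knockout label, and 3 higher and 2 lower under the wildtype label. With gates of 1 marker fewer they had 0 lower genes under the knockout label, and Müller glia there had 1 higher and 5 lower. The share of all genes was not counted under either change of the gates. In the 1 and 2 border macrophages with at most 3 microglia markers, 2 were higher and 6 lower under the knockout label, and 1 higher and 5 lower under the wildtype label. These cells held 1182 and 11389 UMIs. In the 1 cell labelled knockout 1 count was worth 846 CPM, and the 6 lower genes, H2-K1, H2-Q7, Tap1, Tap2, Tapbp and Psmb8, had 0 counts. These calls are too shallow to be read, and the share of all genes was not counted beside them. Counts of called genes in lymphocytes, in Müller glia labelled wildtype and over the Ifit3 bins stayed within 1.5 times under the alternatives run. Leaving out the cell with most member counts, the limit to 1 marker of other gates in the Ifit3 comparison and the cells with exactly 2 endothelial markers were chosen after seeing the data. No paired analysis was possible because each genotype has 1 library and no result comes from a test.

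Depth limits the small classes most. In Müller glia 1 count was worth 5.24 and 3.95 CPM, in endothelial-gene cells 49.9 and 34.5 CPM and in neurons 15 and 12.4 CPM, so the floor of 3 counts is 44.9 and 37.3 CPM in neurons. Intervals cover counting error only and say nothing of the spread between mice. Thinned to 2000 UMIs, all 20 shares of microglia with a count of a member were higher than at 1000.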

Other observations

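Ifit3 was counted in 48.6% and 41.7% of Müller glia, against 16.2% and 12.7% of microglia, in the libraries labelled knockout and wildtype. Thinned to 1000 UMIs, the shares were 16.1% and 17.8% of Müller glia, against 6.31% and 5.74% of microglia. In thinned retinal neurons Ifit3 was seen in 0 of 14 and 0 of 24 cells, with approximate limits of 21.4% and 12.5% (3 over the number of cells). The class with the fewest class I counts per UMI after the neurons thus held Ifit3 in a larger share of cells than microglia at matched depth, from 5 and 8 thinned cells with a count. The 95% intervals overlapped under the knockout label (5.45% to 33.7%, against 5.12% to 7.67%) and did not under the wildtype label (8.0% to 32.1%, against 4.84% to 6.76%).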
